A study of Mus musculus with 24 samples.

Results

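The H3K27me3 libraries of double-negative mammary basal cells, which carry neither Lgr5 nor high Tspan8, were compared with those of the 3 other basal subpopulations of the same sorting scheme. The comparison used all 8 H3K27me3 libraries out of 16 immunoprecipitated libraries analysed and 24 samples in the labels; the 8 input samples were not analysed here. Basal cells were isolated directly from the mammary glands of C57BL/6 female mice without treatment and sorted by flow cytometry. The groups were Lgr5-Tspan8- (double-negative), Lgr5+Tspan8hi (double-positive), Lgr5+Tspan8- and Lgr5-Tspan8hi, with 2 libraries each. The labels give neither the age of the mice nor how Lgr5 was detected. The question was which genes set the double-negative cells apart from cells with either marker, so each of the 3 other subpopulations entered the mean with the same weight. Whether the 2 libraries of a group stem from different animals is not stated in the labels. The p-values therefore reflect the spread of these libraries alone, which may be technical.

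H3K27me3 is trimethylation of lysine 27 of histone H3. It is written by Polycomb repressive complex 2 and marks genes kept silent, among them many regulators of development, while H3K4me3 marks active and poised promoters. Mammary basal cells form the outer epithelial layer of the gland, contract during lactation and include cells able to regenerate the gland. Tspan8 is a tetraspanin of the cell membrane, and Lgr5 binds R-spondins and so raises the response to Wnt ligands.

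Total counts ran from 2639862 in Lgr5-Tspan8hi replicate 1 to 6972189 in Lgr5-Tspan8- replicate 2 over the 8 H3K27me3 libraries. Disagreement between the 2 libraries of a group was scored as chi-square divided by its degrees of freedom. For H3K27me3 this score was highest in double-negative cells (5.91), against 3.93 in Lgr5+Tspan8hi, 3.59 in Lgr5+Tspan8- and 4.63 in Lgr5-Tspan8hi cells. For H3K4me3 it was lowest in double-negative cells, at 3.07 against 3.22 to 4.91. The part of total counts in this score was not tested. Values are given as CPM, the count scaled to a common library size with the factors of the trimmed mean method. H3K27me3 counts followed gene length (Spearman's rho 0.8 across genes), so CPM values compare one gene between libraries, and levels are compared between genes only per kb. Both double-negative libraries had a higher effective depth than any other, at 78.8% and 79%, and the next, Lgr5+Tspan8- replicate 1, was at 74%. This measure asks how many independent reads would leave the observed number of genes at 0, and gives that as a percent of all reads. It was 78.9% ± 0.148 (SD, n = 2) in double-negative and 60.4% ± 15.5 (SD, n = 6) in the other libraries, with an exact two-sided permutation p of 0.143 (28 arrangements, smallest possible p 0.0357). Its part in the results below was not tested. The lowest value, 31.1%, belonged to Lgr5-Tspan8hi replicate 1. The sorted cells carried H3K4me3 at the basal markers, with a summed level of 862 to 946 CPM over 10 markers such as Krt5, Krt14 and Acta2 in double-negative libraries and 778 to 1030 CPM in the others. Among these 10, Trp63 had no read in at least 1 library. Summed H3K4me3 at 6 immune markers was 6.94 to 18.0 CPM against 4.95 to 17.9 CPM, and 5 of these 6 had no read in at least 1 library. At 6 fibroblast markers it was 229 to 242 CPM in double-negative libraries against 150 to 195 CPM in the others, without overlap, and at the 5 other than Dcn it was 165 to 184 CPM against 128 to 164 CPM. At 10 luminal markers it was 690 to 705 CPM against 684 to 724 CPM, and Elf5 had no read in at least 1 library. In such bulk samples, a mark carried by fewer cells and a lower level of the mark per cell cannot be told apart.

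Double-negative cells had more H3K27me3 at 138 genes and less at 26 genes than the mean of the other 3 subpopulations. That was 0.624% and 0.118% of 22099 genes tested (edgeR quasi-likelihood F test, Benjamini-Hochberg adjusted p under 0.05). Together these were 164 genes (0.742%). An unadjusted p under 0.05 was found at 2420 genes (11%; 7.56% higher and 3.39% lower). The median log2 difference of all genes was -0.01. Among the 138 higher genes the median difference was 0.68 on the log2 scale, with a smallest of 0.39 and a largest of 2.34, and among the 26 lower genes the median size was 0.63. In 125 of the 138 higher genes both double-negative libraries lay above all 6 others, which also held for 5.35% of all genes. In 25 of the 26 lower genes both lay below all 6 others, against 4.98% of all genes. Such separation follows largely from calling genes by their difference in the same libraries and is not separate support. The counts moved with single libraries. Where a double-negative library was left out, the remaining one was assumed to vary like those of the other groups, which alone gave the spread. Without Lgr5-Tspan8- replicate 2, 11 genes were higher and 5 lower, and all 16 were among the 164. Leaving out Lgr5-Tspan8- replicate 1 gave 1064 and 90, and leaving out Lgr5-Tspan8hi replicate 2 gave 366 and 53. The counts were 61 and 11 when Lgr5+Tspan8- replicate 1 was omitted, and 78 and 19 when its replicate 2 was. Higher genes made up 84.1% of the calls; with offsets fitted against reads per kb the split was 162 higher and 95 lower (63% higher), with offsets against abundance 119 and 47 (71.7%), and with library totals alone 105 and 38 (73.4%).

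**Figure D1:**
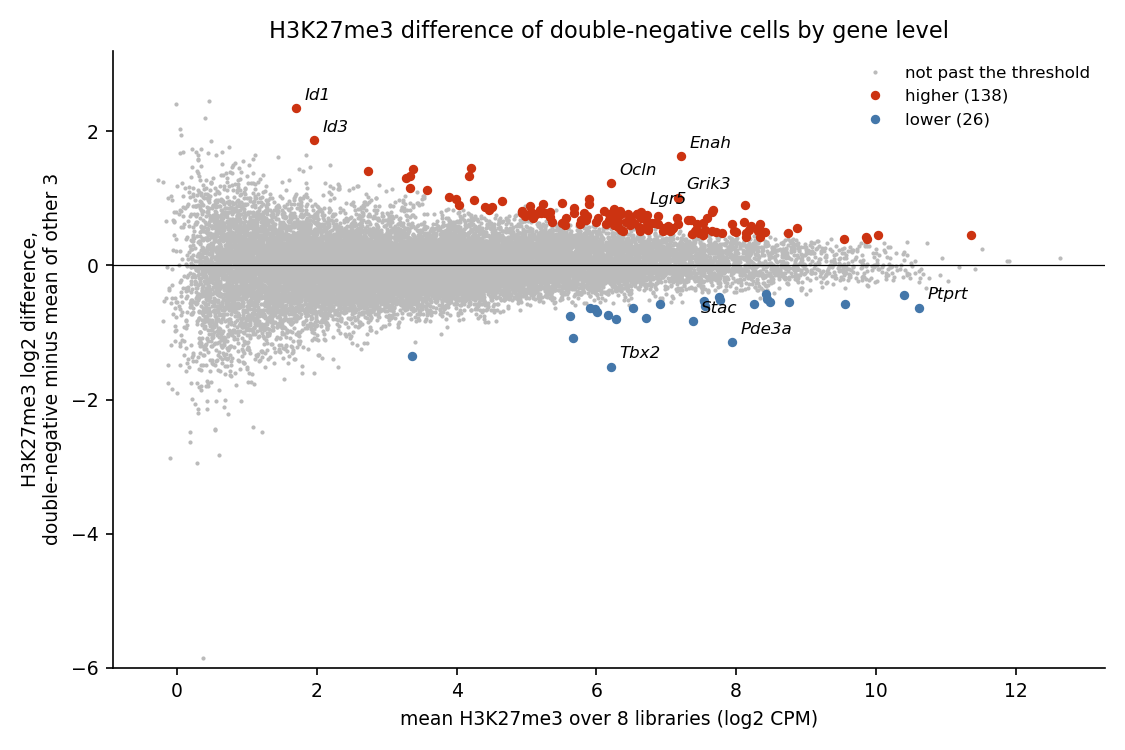
H3K27me3 log2 difference of double-negative cells from the mean of the other 3 subpopulations (vertical axis) against the mean level over 8 libraries (horizontal axis, log2 CPM). Each point is 1 of 22099 genes; the 138 higher genes are red and the 26 lower genes blue, and Ptprt, Pde3a, Tbx2, Enah and Ocln stand out at mid to high levels while Id1 and Id3 have few reads.

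Only 4 genes differed from each of the other 3 subpopulations at an adjusted p under 0.05 for the largest of the 3 pairwise p-values (0.0181% of genes; 370 genes, 1.67%, at an unadjusted p under 0.05). Enah and Ocln had more H3K27me3 in double-negative cells, and Pde3a and Tbx2 had less. The 3 pairwise comparisons share the double-negative libraries. Leaving out either Lgr5+Tspan8- library gave 2 such genes, and leaving out Lgr5-Tspan8- replicate 1 gave 26.

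Enah encodes a regulator of actin filament elongation and cell migration (chromosome 1, 181896384 to 182027556, minus strand, GRCm38). Its H3K27me3 was 268 and 322 CPM in the double-negative libraries, against 65.5 and 65.4 CPM in Lgr5+Tspan8hi, 148 and 116 CPM in Lgr5+Tspan8- and 110 and 93.3 CPM in Lgr5-Tspan8hi libraries. The double-negative libraries lay far above all others, and Lgr5+Tspan8hi libraries were lowest. The double-negative mean was 295 ± 38.4 CPM (SD, n = 2). The fitted log2 difference from the others was 1.63 ± 0.11 (SE, edgeR adjusted p = 3.32e-09), which is 3.09 times their level. Against the 3 subpopulations in that order, Enah differed by 2.17, 1.16 and 1.54 on the log2 scale (adjusted p against each 0.000472). The call against each was lost without Lgr5+Tspan8- replicate 2 (adjusted p 0.211). H3K4me3 at Enah was 105 and 98.8 CPM in double-negative and 91.1 to 119 CPM in the other libraries, which overlapped (log2 difference -0.04 ± 0.15, edgeR adjusted p = 1, with a sign that turned to 0.01 with offsets against abundance).

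Ocln encodes occludin, a membrane protein of tight junctions (chromosome 13, 100496504 to 100552718, minus strand). Its H3K27me3 was 125 and 134 CPM in double-negative libraries, 45.6 and 39.4 CPM in Lgr5+Tspan8hi, 70.9 and 62.2 CPM in Lgr5+Tspan8- and 56.5 and 62.0 CPM in Lgr5-Tspan8hi libraries. No library of another subpopulation came near the double-negative ones. By the fitted log2 difference of 1.23 ± 0.12 (edgeR adjusted p = 2.56e-06), the level was 2.34 times that of the others. The smallest pairwise difference was 0.96, from Lgr5+Tspan8- (adjusted p against each 0.0175). This call against each was lost in 4 of 17 alternatives, those without Lgr5+Tspan8- replicate 1 or 2, Lgr5-Tspan8hi replicate 1 or Lgr5-Tspan8- replicate 2, where the adjusted p reached 1. H3K4me3 at Ocln was 76.4 and 77.9 CPM in double-negative libraries and 78.8 to 116 CPM in the others (log2 difference -0.35 ± 0.16, unadjusted p = 0.0271, edgeR adjusted p = 1).

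Pde3a encodes a phosphodiesterase that breaks down cyclic AMP and cyclic GMP (chromosome 6, 141249269 to 141506862, plus strand) and overlaps the predicted gene Gm10400, whose reads cannot be told apart from its own. Its H3K27me3 was 135 and 122 CPM in double-negative libraries, 312 and 343 CPM in Lgr5+Tspan8hi, 272 and 262 CPM in Lgr5+Tspan8- and 256 and 264 CPM in Lgr5-Tspan8hi libraries. The 6 other libraries lay well above both double-negative libraries, and those of Lgr5+Tspan8hi were highest. By the fitted log2 difference of -1.14 ± 0.11 (edgeR adjusted p = 1.69e-06), the others had 2.21 times the double-negative level. The differences were -1.35, -1.06 and -1.02 against each (adjusted p against each 0.000472). Pde3a kept its call against each in all 17 alternatives that tested it (adjusted p up to 0.0159).

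Tbx2 encodes a T-box transcription factor of mammary line development (chromosome 11, 85832615 to 85841948, plus strand). Its H3K27me3 was 33.5 and 28.8 CPM in double-negative libraries, 91.6 and 105 CPM in Lgr5+Tspan8hi, 83.4 and 73.3 CPM in Lgr5+Tspan8- and 80.6 and 97.8 CPM in Lgr5-Tspan8hi libraries. All 6 other libraries lay above both double-negative ones. Lgr5-Tspan8hi libraries overlapped with those of both Lgr5+ subpopulations, while Lgr5+Tspan8hi lay above Lgr5+Tspan8- libraries. Tbx2 had the largest fall among the named genes, with a log2 difference of -1.51 ± 0.15 (edgeR adjusted p = 2.56e-06; -1.66, -1.34 and -1.53 against each, adjusted p 0.000472, and 0.0762 without Lgr5+Tspan8- replicate 1). Per kb, its level was 3.34 CPM in double-negative and 9.49 CPM in the other libraries, against 0.498 and 1.11 CPM per kb at Pde3a. The noncoding gene 2610027K06Rik, which starts within 2 kb of Tbx2, also had less H3K27me3 (log2 difference -1.09, edgeR adjusted p = 0.0011).

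**Figure D2:**
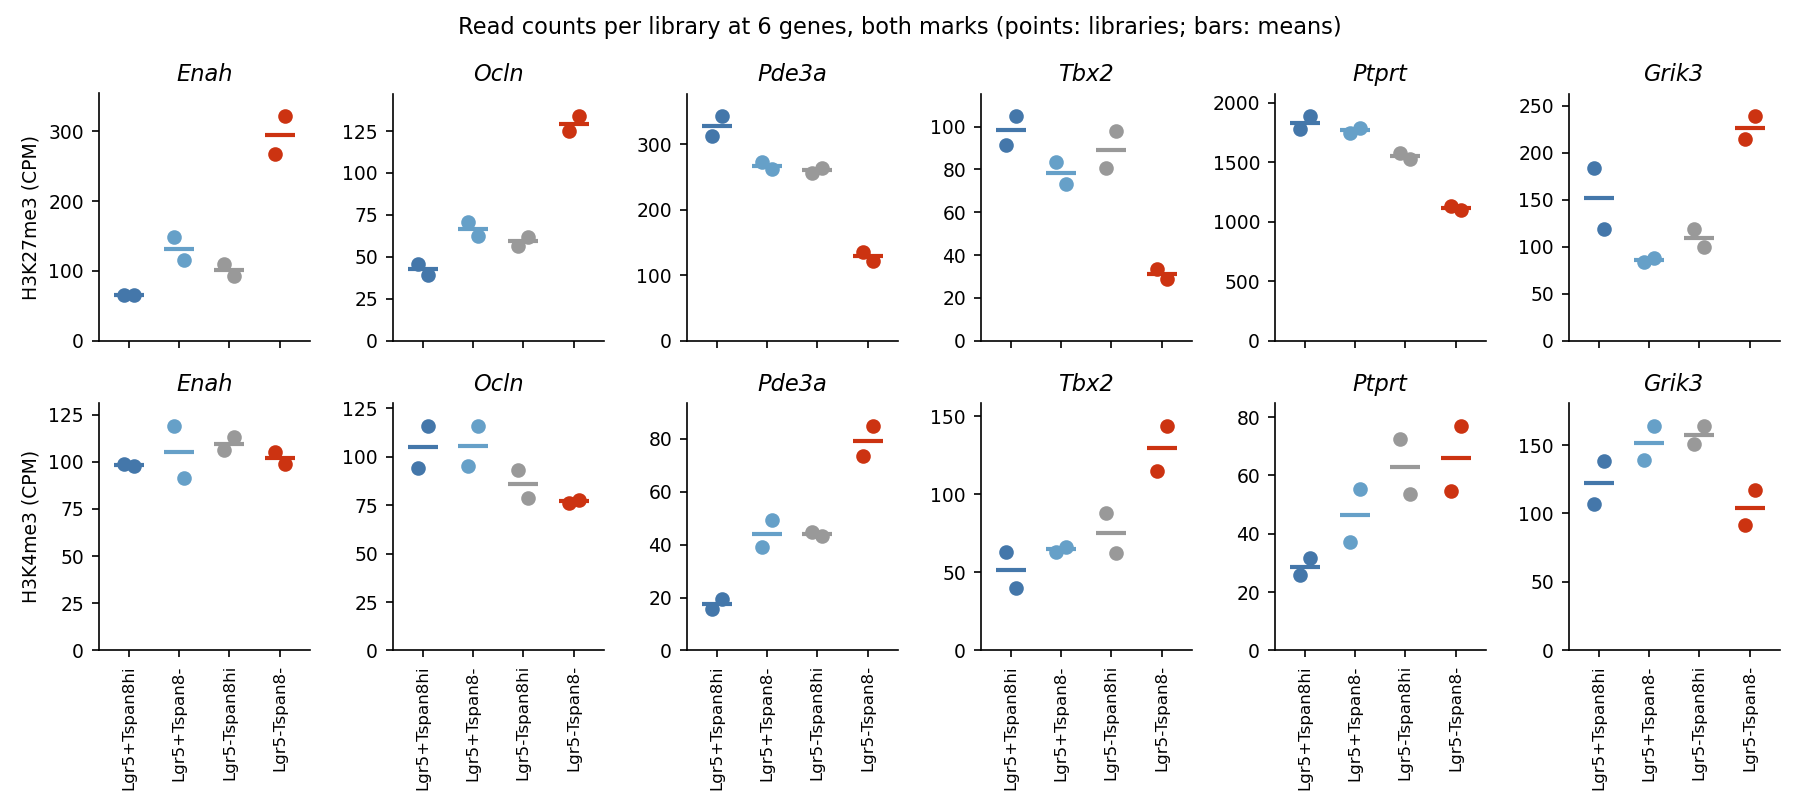
CPM in each library (points) and mean of each subpopulation (bars) for H3K27me3 (upper row) and H3K4me3 (lower row) at 6 genes, with the 4 subpopulations on the horizontal axis. Both double-negative libraries lie above all others at Enah, Ocln and Grik3 and below all others at Pde3a, Tbx2 and Ptprt for H3K27me3, while H3K4me3 at Pde3a and Tbx2 is highest in double-negative libraries.

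Promoter sequences are shown for 3 genes that the results turn on and whose window lies upstream of all annotated exons: Ocln, which differed from each other subpopulation, Id3, which had more H3K27me3 and, after Adamts6, the lowest unadjusted p-value for less H3K4me3 among the higher genes, and Ptprt, which had the highest H3K27me3 count of the named lower genes. Each is the 250 bases before the gene start, 5′ to 3′ on the gene's strand, from RefSeq for GRCm38.p6, and capitals mark CpG (the letters CG, which read the same on both strands).
Ocln, chr13:100552719-100552968, minus strand: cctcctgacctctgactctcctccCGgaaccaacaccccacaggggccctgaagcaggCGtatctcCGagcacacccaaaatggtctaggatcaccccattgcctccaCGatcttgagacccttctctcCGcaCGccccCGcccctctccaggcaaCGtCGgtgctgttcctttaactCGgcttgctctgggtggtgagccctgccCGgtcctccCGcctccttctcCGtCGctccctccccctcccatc
Id3, chr4:136143572-136143821, plus strand: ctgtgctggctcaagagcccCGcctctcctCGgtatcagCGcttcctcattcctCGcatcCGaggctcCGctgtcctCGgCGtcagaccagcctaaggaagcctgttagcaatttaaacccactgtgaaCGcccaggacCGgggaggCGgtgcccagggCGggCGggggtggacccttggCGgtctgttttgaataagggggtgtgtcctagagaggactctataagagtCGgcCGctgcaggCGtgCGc
Ptprt, chr2:162661148-162661397, minus strand: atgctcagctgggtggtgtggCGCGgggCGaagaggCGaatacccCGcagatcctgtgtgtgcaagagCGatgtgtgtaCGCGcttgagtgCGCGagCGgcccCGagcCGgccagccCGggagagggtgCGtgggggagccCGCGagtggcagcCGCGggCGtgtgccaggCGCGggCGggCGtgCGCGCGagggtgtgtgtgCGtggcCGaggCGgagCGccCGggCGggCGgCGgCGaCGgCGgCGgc
The windows held 14, 18 and 39 CpG, and 92.9% of 18458 RefSeq promoters held at least 1, with a median of 9. As many or more CpG as in the Ocln, Id3 and Ptprt windows were found in 38.9%, 28.4% and 1.92% of promoters. The GC content was 64%, 62.8% and 76.4%. These counts describe the letters of the windows only.

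Among the other higher genes, the largest differences were at short genes with few reads. Id1 and Id3 encode inhibitors of basic helix-loop-helix transcription factors and are classic targets of BMP signalling. Id1 (chromosome 2, 152736251 to 152737410) was at 7.40 and 8.41 CPM in double-negative libraries and at 0.377 to 3.49 CPM in the other 6. The groups did not overlap, and the log2 difference was 2.34 ± 0.44 (edgeR adjusted p = 0.0072). Id3 (chromosome 4, 136143822 to 136145392) was at 9.25 and 7.81 CPM against 1.49 to 2.78 CPM (log2 difference 1.87 ± 0.39, edgeR adjusted p = 0.0158). Mos, the kinase of oocyte maturation, was at 21.0 and 18.3 CPM against 5.56 to 8.65 CPM (log2 difference 1.44 ± 0.25, edgeR adjusted p = 0.00342). The tight junction gene Cldn6, which neighbours Tnfrsf12a, was at 17.1 and 20.1 CPM against 3.77 to 9.58 CPM (log2 difference 1.34 ± 0.27, edgeR adjusted p = 0.0132). The other genes of the 12 largest upward differences were Gpr27 (1.4), Ypel4 (1.33), Prr18 (1.31), Adamtsl5 (1.16), Tmem200c (1.12) and Chst2 (1.02), an enzyme that adds sulphate to sugar chains. Gpr27 lies inside Eif4e3. Of these 12, 10 lost the call without Lgr5-Tspan8- replicate 2 (adjusted p 0.126 to 1), all except Enah and Ocln. Their differences were then 2.25 at Id1, 1.99 at Id3, 1.53 at Mos, 1.49 at Prr18, 1.22 at Cldn6, 1.19 at Adamtsl5 and 1.02 at Tmem200c, near the values above, while those of Ypel4 (0.91), Chst2 (0.79) and Gpr27 (0.65) were smaller. Without Lgr5+Tspan8- replicate 1 or 2, 6 and 7 of them did, with adjusted p of 0.0539 to 0.156 and 0.0526 to 0.148. Without Lgr5+Tspan8hi replicate 2, 4 did (0.0541 to 0.0923), and without Lgr5-Tspan8- replicate 1, 3 did (0.0577 to 0.0717).

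Grik3, which encodes a kainate-type glutamate receptor subunit (chromosome 4, 125490259 to 125714173), combined a large difference with a high count. It was at 214 and 239 CPM in double-negative libraries, 184 and 119 CPM in Lgr5+Tspan8hi, 83.8 and 88.4 CPM in Lgr5+Tspan8- and 119 and 100 CPM in Lgr5-Tspan8hi libraries. Both double-negative libraries were above all others, of which Lgr5+Tspan8hi came nearest. The log2 difference was 1.01 ± 0.13 (edgeR adjusted p = 0.000138), yet Grik3 did not pass against each subpopulation, with differences of 0.58, 1.4 and 1.06 (adjusted p 1). Grik3 was also 1 of 2 genes (0.00905%) with an interaction of Lgr5 and Tspan8, which had an unadjusted p under 0.05 at 5.5% of genes.

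The sorting gene Lgr5 itself had more H3K27me3 in double-negative cells (chromosome 10, 115450314 to 115587780, overlapping A930009A15Rik). The libraries were at 163 and 125 CPM, against 112 and 62.5 CPM in Lgr5+Tspan8hi, 64.7 and 60.3 CPM in Lgr5+Tspan8- and 112 and 96.6 CPM in Lgr5-Tspan8hi libraries. The double-negative libraries were highest, followed by Lgr5-Tspan8hi and 1 Lgr5+Tspan8hi library, and the lowest 3 were Lgr5+. The log2 difference was 0.79 ± 0.15 (edgeR adjusted p = 0.0102). The call was lost without Lgr5+Tspan8- in the mean (0.59, adjusted p 0.0802) and in a model of 2 groups (0.76, adjusted p 0.158). Tspan8 was at 29.1 and 21.5 CPM against 10.2 to 17.9 CPM, without overlap, but did not pass (log2 difference 0.83 ± 0.22, edgeR adjusted p = 0.0741). Its H3K4me3 followed the sort, at 25.1 and 21.3 CPM in double-negative and 31.0 and 23.3 CPM in Lgr5+Tspan8- libraries, against 69.4 to 90.2 CPM in both Tspan8hi subpopulations. H3K4me3 at Lgr5 overlapped between Lgr5+Tspan8hi (61.7 and 94.5 CPM) and Lgr5-Tspan8hi libraries (74.3 and 80.8 CPM). It was 95.9 and 100 CPM in Lgr5+Tspan8- and 51.9 and 72.8 CPM in double-negative libraries (log2 difference -0.40 ± 0.17, edgeR adjusted p = 0.977).

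The lower genes were long and had high H3K27me3 counts. Ptprt, a receptor tyrosine phosphatase of the nervous system (chromosome 2, 161521988 to 162661147), was at 1130 and 1100 CPM in double-negative libraries, 1780 and 1890 CPM in Lgr5+Tspan8hi, 1750 and 1790 CPM in Lgr5+Tspan8- and 1580 and 1530 CPM in Lgr5-Tspan8hi libraries. Both double-negative libraries lay far below all others, while those of Lgr5+Tspan8hi and Lgr5+Tspan8- overlapped and Lgr5-Tspan8hi lay between. The log2 difference was -0.63 ± 0.08 (edgeR adjusted p = 0.000283), with -0.72, -0.67 and -0.48 against each (adjusted p 0.173), and reads of the overlapping antisense gene Ptprtos cannot be told apart. Stac, an adaptor protein of voltage-gated calcium channels, was at 114 and 96.6 CPM against 162 to 217 CPM (log2 difference -0.83 ± 0.12, edgeR adjusted p = 0.00109). Egflam, which encodes the matrix protein pikachurin, was at 143 and 125 CPM against 185 to 232 CPM (log2 difference -0.61 ± 0.12, edgeR adjusted p = 0.0072). The collagen genes Col9a1 (-0.80) and Col6a4 (-0.79) were among the 12 largest downward differences, as were Arsj, a sulphatase (-0.76), Glb1l3 (-0.70), the epithelial transcription factor gene Grhl1 (-0.65), Tyr, the enzyme of melanin synthesis (-0.63), and the transcriptional repressor gene Hic2 (-0.63), which overlaps Tmem191c. Of these 12, 8 lost the call without Lgr5-Tspan8- replicate 2 (adjusted p 0.22 to 0.81), all except Pde3a, Tbx2, Ptprt and Stac. Their differences were then -0.78 at Arsj, -0.66 at Hic2, -0.64 at Glb1l3, -0.58 at Tyr and Grhl1, -0.54 at Col6a4, -0.52 at Egflam and -0.48 at Col9a1. Calls of 6 were lost when Lgr5+Tspan8- replicate 1 was omitted (0.0742 to 0.146). Omitting replicate 2 of Lgr5+Tspan8hi or of Lgr5+Tspan8- cost 3 calls each, with adjusted p up to 0.0842 and 0.123, and Hic2 also lost its call when replicate 1 of Lgr5+Tspan8hi, Lgr5-Tspan8hi or Lgr5-Tspan8- was omitted (0.0749, 0.0559 and 0.0914).

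The difference from the other 3 was not of 1 size. At the higher genes the median log2 difference was 0.84 from Lgr5+Tspan8hi, 0.55 from Lgr5+Tspan8- and 0.61 from Lgr5-Tspan8hi cells, and at the lower genes it was -0.73, -0.53 and -0.59. Lgr5+Tspan8- was the nearest subpopulation to the double-negative cells at 80 of the 138 higher and 18 of the 26 lower genes, against 9315 of all 22099 genes. A test for any difference among the other 3 subpopulations called no gene in edgeR (1660 genes, 7.51%, at an unadjusted p under 0.05), 28 in DESeq2 and 11 in limma-voom. In edgeR it called 230 genes when Lgr5-Tspan8hi replicate 2 was omitted and 1 when its replicate 1 was. Omitting Lgr5-Tspan8- replicate 1 gave 51 genes, omitting its replicate 2 gave 62, and omitting Lgr5+Tspan8hi replicate 2 gave 8. Of the higher genes 47.8% and of the lower genes 26.9% had an unadjusted p under 0.05 in that test. Leaving Lgr5+Tspan8hi out of the mean gave 46 higher and 7 lower genes.

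**Figure D3:**
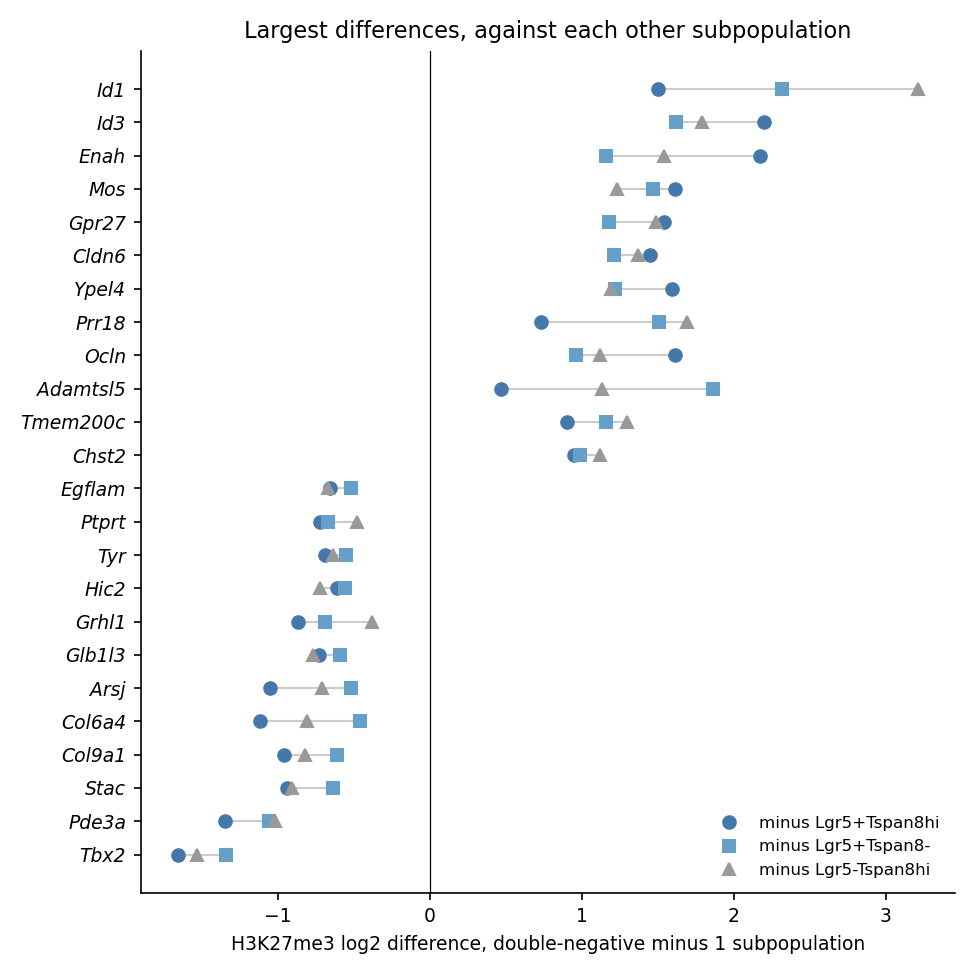
H3K27me3 log2 difference of double-negative cells from each of the other 3 subpopulations (symbols) at the 12 largest upward and 12 largest downward differences, 1 gene per line. All symbols of a gene lie on the same side of 0, which follows from choosing genes whose double-negative libraries lay outside all others. The spread is narrow at Pde3a and Tbx2 and wide at Id1 and Adamtsl5.

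Pathway genes were described by lists, by their counts past the threshold and their medians. Over all genes tested, 0.624% were higher and 0.118% lower, and the median log2 difference was -0.01; nothing particular to a list is read from these counts. In the Hedgehog pathway, 2 of 13 members were higher and none lower (median log2 difference 0.19). These were the genes of the effector transcription factors. Gli2 was at 395 and 468 CPM in double-negative libraries, 219 and 205 CPM in Lgr5+Tspan8hi and 300 to 343 CPM in the other 4 libraries (log2 difference 0.61 ± 0.10, edgeR adjusted p = 0.0018). Gli1, which overlaps Arhgap9, was at 51.3 and 56.5 CPM against 23.7 to 40.9 CPM (log2 difference 0.78 ± 0.16, edgeR adjusted p = 0.0148). At both genes the double-negative libraries lay above all others. The receptor genes Ptch1 (-0.12) and Smo (0.02) and the third effector gene, Gli3 (-0.28), did not pass. Gli2 lost the call in 3 and Gli1 in 5 of 21 alternatives, among them that without Lgr5-Tspan8- replicate 2 (adjusted p 0.124 and 0.522), and Gli1 also without Lgr5+Tspan8- replicate 1 (0.0753).

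In the Wnt pathway 2 of 34 members were higher, Lgr5 and the ligand gene Wnt7b (log2 difference 0.52 ± 0.13, edgeR adjusted p = 0.0498). Wnt7b, whose libraries overlapped, lost the call in 12 of 21 alternatives. The median of the list was 0.19, and it was -0.09 without Lgr5-Tspan8- replicate 1 and 0.29 without replicate 2. In the Notch pathway 1 of 16 members tested was higher, the receptor gene Notch1, at 26.8 and 40.1 CPM against 12 to 28.3 CPM (log2 difference 0.87 ± 0.21, edgeR adjusted p = 0.0471; lost in 7 of 20 alternatives). In the TGF-beta and BMP pathway 2 of 27 members were higher, Id1 and Id3, while ligand and receptor genes such as Bmp4 (0.39), Tgfb1 (-0.07) and Tgfbr2 (-0.03) did not pass. Of 27 genes for FGF and EGF ligands and receptors 1 was higher, the neuregulin gene Nrg2 (0.51 ± 0.11, edgeR adjusted p = 0.0218), which overlaps Psd2. Among 15 genes of quiescence and cell cycle inhibitors tested, Nfatc1, a transcription factor known from quiescent hair follicle stem cells, was at 96.2 and 113 CPM against 43.3 to 81.0 CPM (log2 difference 0.77 ± 0.13, edgeR adjusted p = 0.00309). When Lgr5-Tspan8- replicate 2 was omitted, Nfatc1 (adjusted p 0.229), Nrg2 (0.126), Notch1 (1) and Wnt7b (1) lost the call. Omitting either Lgr5+Tspan8- library cost Nrg2 and Notch1 theirs (0.0554 to 0.156), as did Lgr5+Tspan8hi replicate 2 for Nrg2 (0.0773) and its replicate 1 for Notch1 (0.114). None of 14 proliferation genes passed, and Mki67 was at 12.9 and 8.26 CPM against 12.4 to 24.8 CPM (log2 difference -0.82 ± 0.26, edgeR adjusted p = 0.154).

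Genes known as classic Polycomb targets lay above 0 almost throughout, though few passed singly. None of 39 Hox genes passed, yet 38 of 39 lay above 0, against 49.1% of all genes, with a median log2 difference of 0.40 and 22 at an unadjusted p under 0.05. Of 45 other developmental transcription factor genes all lay above 0 (median 0.41), and 2 passed. Pax6, an eye and brain regulator that overlaps Elp4 and Pax6os1, was at 295 and 364 CPM against 215 to 250 CPM (log2 difference 0.50 ± 0.11, edgeR adjusted p = 0.0168). Lhx9, a LIM homeobox gene, was at 271 and 297 CPM against 173 to 236 CPM (log2 difference 0.49 ± 0.11, edgeR adjusted p = 0.0207). H3K4me3 also lay above 0 at 30 of 39 Hox genes (median 0.25) and 37 of 45 developmental transcription factor genes (median 0.30), with no call, against 50.5% of all genes; these medians ran from 0.13 to 0.39 and from 0.16 to 0.34 over 12 alternatives. Per kb of gene, Pax6 and Lhx9 were dense in H3K27me3, at 11.1 and 12 CPM in double-negative libraries. With offsets fitted against reads per kb, the medians were 0.06 for Hox and 0.09 for developmental transcription factor genes, and Pax6 and Lhx9 no longer passed (adjusted p 0.569 and 0.768). Without Lgr5-Tspan8- replicate 2 the medians were 0.13 and 0.15, and without replicate 1 they were 0.67 and 0.69. Neither Pax6 nor Lhx9 passed when Lgr5-Tspan8- replicate 2 (0.719 and 0.396) or Lgr5+Tspan8hi replicate 1 (0.0606 and 0.0768) was omitted, nor Pax6 without Lgr5+Tspan8- replicate 1 (0.0755) and Lhx9 without its replicate 2 (0.0733). Genes of one Hox cluster lie side by side and are not independent.

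All 12 pan-luminal genes lay above 0 with a median of 0.45, but none passed. The claudin gene Cldn7 was at 24.3 and 42.2 CPM against 11.1 to 23.7 CPM (log2 difference 0.83 ± 0.21, edgeR adjusted p = 0.0675), and Muc1 at 6.24 and 7.06 CPM against 1.13 to 3.71 CPM (log2 difference 1.41 ± 0.44, edgeR adjusted p = 0.149). The median kept its sign in all 12 alternatives run for it (0.39 to 0.76). Summed H3K27me3 over the 12 genes was 159 to 162 CPM in double-negative and 112 to 139 CPM in the other libraries, and summed H3K4me3 was 659 to 667 against 694 to 814 CPM. None of 14 hormone-sensing luminal (median 0.20), 12 luminal progenitor (-0.11), 22 basal and contractile (0.10) or 22 hormone receptor and paracrine signal genes (0.09) passed. The basal median ran from -0.18 without Lgr5-Tspan8- replicate 1 to 0.40 without replicate 2. In the list of 23 transcription factors of epithelial-mesenchymal transition and basal identity, Tbx2 was the only call, and Trp63 (0.06), Snai2 (-0.05) and Zeb1 (0.01) did not pass.

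Matrix and neuronal genes were called in both directions. Of 38 collagen, laminin and matrix enzyme genes 3 were higher: Lox (0.78 ± 0.17, edgeR adjusted p = 0.0251) and Loxl1 (0.63 ± 0.13, edgeR adjusted p = 0.0132), which crosslink collagen and elastin, and the metalloprotease gene Adamts6 (0.70 ± 0.13, edgeR adjusted p = 0.00521), which overlaps Gm8680. The lower collagen genes Col9a1 and Col6a4 were not in that list, whose median was 0.03. Of 32 synaptic and axon guidance genes 2 were higher, Grik3 and Cntn2 (0.79 ± 0.17, edgeR adjusted p = 0.0218), and 2 lower. The lower genes were the postsynaptic adhesion genes Nlgn1, at 635 and 465 CPM against 695 to 951 CPM (log2 difference -0.58 ± 0.11, edgeR adjusted p = 0.00757), and Lrfn5, at 184 and 146 CPM against 201 to 268 CPM (log2 difference -0.51 ± 0.11, edgeR adjusted p = 0.0258). The median of the list was -0.11. When Lgr5-Tspan8- replicate 2 was omitted, Lox, Loxl1, Cntn2, Nlgn1 and Lrfn5 all lost the call (adjusted p 0.368 to 0.932). Omitting either Lgr5+Tspan8- library or Lgr5+Tspan8hi replicate 2 cost Lox, Cntn2 and Lrfn5 the call (0.0539 to 0.108), Loxl1 lost it without Lgr5+Tspan8- replicate 1 (0.0586), and Lrfn5 also without replicate 1 of Lgr5+Tspan8hi (0.0634) or of Lgr5-Tspan8hi (0.0515). None of 28 genes of Polycomb complexes and H3K27 demethylases passed (median -0.18, and -0.03 and -0.05 without Lgr5-Tspan8- replicate 1 and 2), Ezh2 among them (-0.51, edgeR adjusted p = 0.339). The lists for fibroblast, pericyte, endothelial, immune, adipocyte and Schwann cells held no H3K27me3 call, with medians from -0.01 to 0.10. Their H3K4me3 medians ran from 0.07 (endothelial) to 0.79 (adipocyte), against 0 for all genes. At adipocyte genes, summed H3K4me3 was 349 CPM in both double-negative libraries against 291 to 344 CPM. At 4 immune genes it was 29.3 to 33.8 against 17.7 to 29.1 CPM. At pericyte, endothelial and Schwann genes these sums overlapped, and the fibroblast sums are given below. The cause was not tested. Only 7 of 22 ribosomal protein genes had enough reads to be tested, with no call. The median of these 7 was 0.60, the highest of the 25 lists, and ran from -0.52 to 0.69 over its alternatives, with a summed H3K27me3 of only 10.5 to 12.3 CPM in double-negative and 9.31 to 13.9 CPM in the other libraries.

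**Figure D4:**
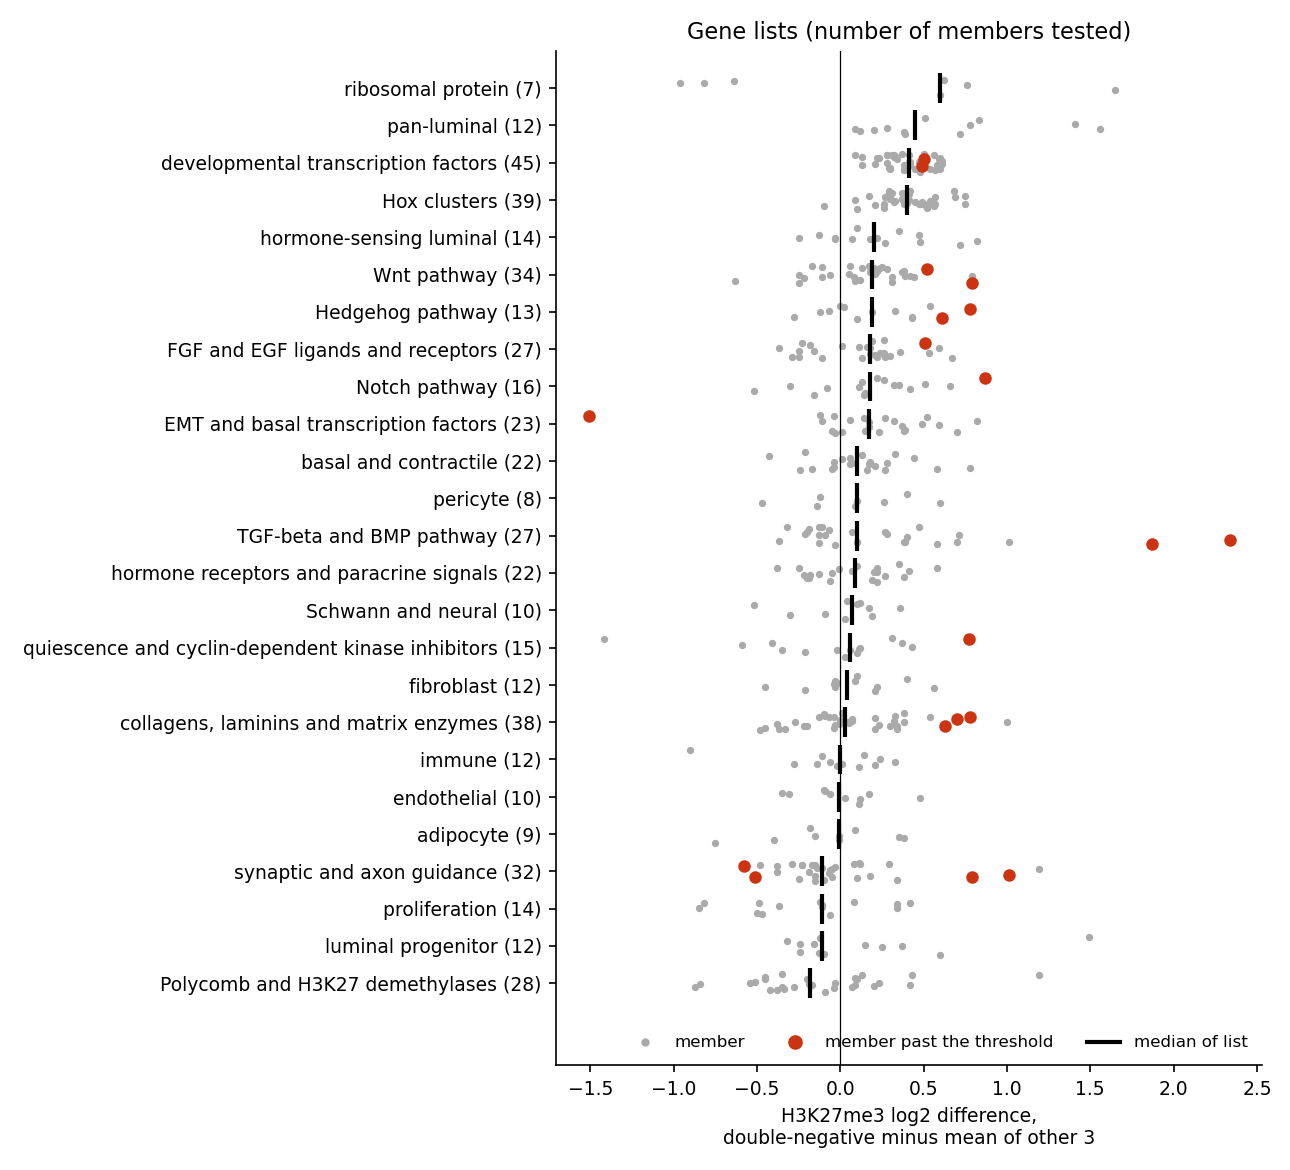
H3K27me3 log2 difference of each tested list member (points; red where past the threshold) and list median (black bar), with the number of members tested in brackets. Hox, developmental transcription factor and pan-luminal medians lie between 0.40 and 0.45 and that of the 7 ribosomal protein genes at 0.60, while called members are scattered over 10 lists.

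H3K4me3 was measured in separate libraries of the same subpopulations, and the same contrast called 13 of 19009 genes, 9 higher (0.0473%) and 4 lower (0.021%), together 0.0684%; 868 genes (4.57%) had an unadjusted p under 0.05. H3K4me3 was not used to call the H3K27me3 genes. Total counts ran from 1472251 to 4740371 over the 8 H3K4me3 libraries, with the highest in Lgr5-Tspan8- replicate 2. Effective depth was 81.3% ± 16.5 (SD, n = 2) in double-negative and 48.9% ± 27.9 (SD, n = 6) in the other libraries. It ran from 17.2% in Lgr5-Tspan8hi replicate 1 to 99.3% in Lgr5+Tspan8- replicate 2, and its part in these results was not tested. Of the 26 genes with less H3K27me3, 25 were tested for H3K4me3, 15 (60%) were higher at an unadjusted p under 0.05, none was lower, and the median log2 difference was 0.62. Over all genes with both marks tested, 2.71% were higher and 1.89% lower at that p. Of the 127 genes with more H3K27me3 that were tested, 13 (10.2%) were lower in H3K4me3, none was higher, and the median was -0.02.

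The calls in both marks were few. Among the genes with less H3K27me3, 4 passed for more H3K4me3: Tbx2, 2610027K06Rik (which starts within 2 kb of Tbx2), Pde3a and Lrfn5. H3K4me3 at Tbx2 was 115 and 144 CPM in double-negative libraries against 40.0 to 88.0 CPM in the others (log2 difference 1.06 ± 0.16, edgeR adjusted p = 6.27e-06). At Pde3a it was 73.5 and 84.9 CPM, against 15.8 and 19.4 CPM in Lgr5+Tspan8hi and 39.0 to 49.3 CPM in the other 4 libraries (log2 difference 1.30 ± 0.20, edgeR adjusted p = 6.37e-06). The H3K4me3 difference at Pde3a was 2.16 from Lgr5+Tspan8hi, 0.87 from Lgr5+Tspan8- and 0.86 from Lgr5-Tspan8hi cells. This call was lost without Lgr5+Tspan8hi in the mean. Both Tbx2 and Pde3a had non-overlapping libraries in both marks, in opposite directions. In H3K27me3 this was a condition for naming them among the largest differences, and in H3K4me3 both were already called. For H3K4me3, the double-negative libraries lay above all 6 others at 3.47% of all genes and below them at 3.01%. Lrfn5, which starts within 2 kb of the start of Gm20063, was at 44.9 and 70.5 CPM against 12.5 to 31.5 CPM (log2 difference 1.64 ± 0.25, edgeR adjusted p = 6.37e-06). Nlgn1 was at 83.4 and 101 CPM against 35.1 to 78.8 CPM and fell just short (log2 difference 0.73 ± 0.17, edgeR adjusted p = 0.0595), as did Spock3, a matrix proteoglycan gene (1.33 ± 0.32, edgeR adjusted p = 0.0843).

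In the other direction, Adamts6 was the only gene with more H3K27me3 that passed for less H3K4me3, at 65.9 and 53.4 CPM in double-negative libraries against 85.1 to 108 CPM in the others (log2 difference -0.73 ± 0.16, edgeR adjusted p = 0.037). This H3K4me3 call at Adamts6 was lost in 11 of 21 alternatives, where the difference was -0.86 to -0.55. Among them were library totals alone (adjusted p 0.0533), offsets against abundance (0.0811) and leaving out replicate 1 of Lgr5+Tspan8- (0.0842), of Lgr5-Tspan8hi (0.0733) or of Lgr5-Tspan8- (0.183), or replicate 2 of Lgr5+Tspan8hi (0.0509) or of Lgr5-Tspan8- (1). Its H3K27me3 call was lost in a 2-group model (0.178) and without Lgr5-Tspan8hi in the mean (0.051). H3K4me3 at Id3 was 76.4 and 79.4 CPM against 100 to 123 CPM (log2 difference -0.54 ± 0.15, edgeR adjusted p = 0.284), and at Mos 28 and 31.0 CPM against 34.6 to 66.8 CPM (log2 difference -0.75 ± 0.23, edgeR adjusted p = 0.483). These libraries did not overlap either, but neither gene passed. At Id1, by contrast, H3K4me3 was 75.2 and 75.8 CPM against 50.7 to 78.4 CPM. The largest H3K4me3 differences without a called H3K27me3 difference included Dcn, the gene of the fibroblast proteoglycan decorin, at 65.3 and 58.9 CPM against 9.38 to 41.8 CPM (log2 difference 1.63 ± 0.24, edgeR adjusted p = 6.37e-06). H3K27me3 at Dcn was 24.3 and 14.0 CPM against 19 to 25.6 CPM (edgeR adjusted p = 0.838). Dcn belongs to the fibroblast list itself. Summed H3K4me3 over the 12 genes of that list was 355 to 371 CPM in double-negative and 229 to 313 CPM in the other libraries, and over the 11 without Dcn it was 291 to 313 CPM against 206 to 279 CPM. Its part in the difference at Dcn was not tested. The secreted protein genes Ptx3 (-0.81 ± 0.16, edgeR adjusted p = 0.00636) and Slpi (-0.93 ± 0.20, edgeR adjusted p = 0.025) had less H3K4me3. The H3K4me3 call was lost in 2 of 21 alternatives at Ptx3 and in 7 at Slpi. Those at Slpi included a 2-group model and the means without Lgr5+Tspan8hi or without Lgr5-Tspan8hi. Without Lgr5-Tspan8- replicate 2, Dcn was the only 1 of the 13 to pass (adjusted p 0.0182), with Tbx2 at 0.465, Pde3a at 0.373 and Lrfn5 and Adamts6 at 1. Without Lgr5-Tspan8hi replicate 2, 50 genes passed.

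**Figure D5:**
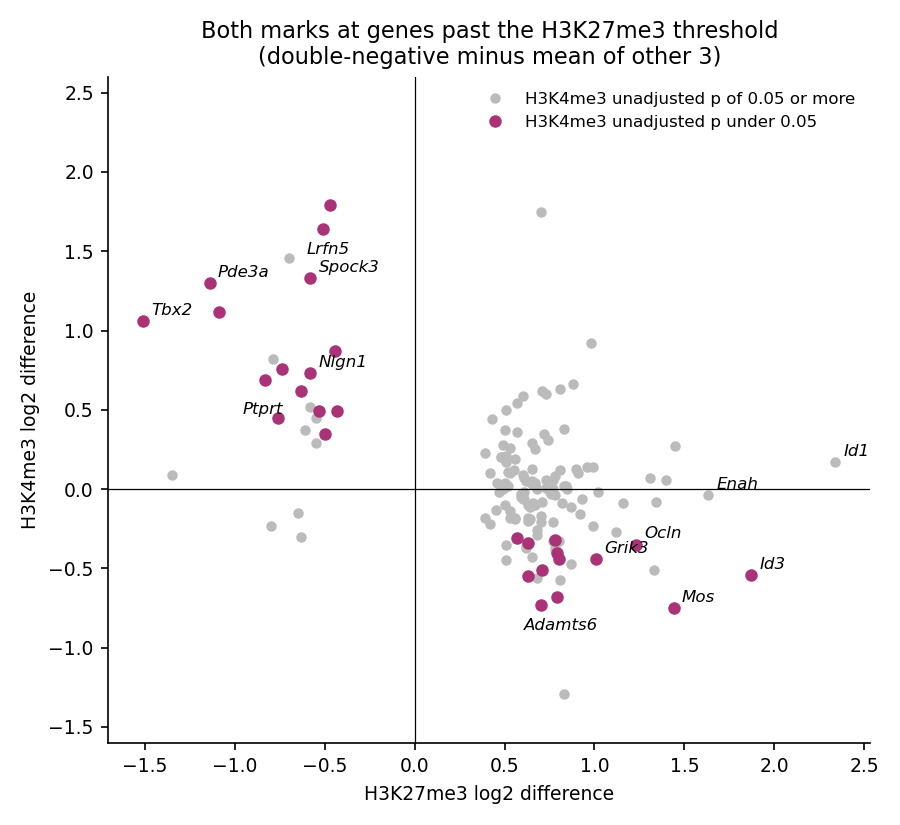
H3K4me3 log2 difference (vertical axis) against H3K27me3 log2 difference (horizontal axis) at the 152 genes past the H3K27me3 threshold that were tested for both marks, with genes at an unadjusted H3K4me3 p under 0.05 in purple. Most genes with less H3K27me3 lie above 0 in H3K4me3, 15 of them in purple, while the genes with more H3K27me3 lie on both sides of 0, 13 of them in purple below it.

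The called genes are set beside all genes tested here, not beside genes of like count. H3K27me3 counts followed gene length, and a difference passes more readily at genes with more reads. Greater length, higher levels and a larger share tested for H3K4me3 can therefore follow from the calling itself. The lower genes had a median length of 153 kb and the higher genes of 47.6 kb, against 19.8 kb for all genes tested. The median H3K27me3 level was 86.7 CPM at higher, 176 CPM at lower and 11.4 CPM at all genes, and per kb it was 2.00, 1.16 and 0.651 CPM. H3K4me3 could be tested at 92% of higher and 96.2% of lower genes, against 74% of all, so most called genes carried reads of both marks in these bulk cells. Merging gene bodies within 10 kb left 131 loci for 134 placed higher genes and 25 loci for 26 lower genes, so few calls came from neighbours. The nearest neighbours within 100 kb that were not called themselves lay above 0 in 145 of 205 cases beside higher genes (median log2 difference 0.17) and below 0 in 22 of 26 beside lower genes (median -0.13). Over all genes tested, 49.1% lay above 0. Another gene overlapped 23.2% of the higher and 26.9% of the lower genes, against 21.8% of all genes. The part of shared reads in the values of neighbours was not tested. Of the higher genes 6 (4.48%) were on the X chromosome, against 4.87% of all genes, and none of the lower genes was.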

How the data were processed

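Chromatin immunoprecipitation with sequencing was done for H3K27me3 and H3K4me3 in sorted mammary basal cells, per the labels' protocols. The authors deposited raw read counts per gene for each library, and the submitters' processing notes name featureCounts and mm10. Versions, aligner, annotation and counted region of each gene were not given in the sources used here; whole gene bodies and promoters could give different values. The members and gene lists were chosen with earlier results of these data known.

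The 8 libraries of each mark were fitted together with a mean per subpopulation in edgeR 4.0.16 (R 4.3.3): low-count filter, trimmed mean scaling and robust quasi-likelihood F test, with 4 residual degrees of freedom. Common variation between replicates was 16.8% for H3K27me3 and 16% for H3K4me3. The contrast set double-negative cells against the equally weighted mean of the other 3; differences are log2 with their standard errors, and Benjamini-Hochberg adjustment covered all genes tested. A gene stood apart from each when the largest of 3 pairwise p-values passed with all signs equal. The test was tested on simulated data. Alternatives used limma 3.58.1, DESeq2 1.42.0, other scalings and filters, and left-out libraries. Positions and promoters came from RefSeq for GRCm38.p6, the assembly of mm10, with 25189 of 27080 symbols matched and 1891 unmatched. Columns of other samples numbered 0.

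Named genes were Lgr5 and Tspan8; the 12 largest upward and 12 largest downward differences among genes past the threshold whose double-negative libraries lay outside all others, with olfactory receptors, small RNAs, clones and predicted genes left out; the genes apart from each; up to 3 members of each list; and the genes with the clearest H3K4me3 differences. Some list members that did not pass, and 2610027K06Rik, were named after their values were seen. Input samples were not analysed here, so counts hold the background of each gene. The p-values rest on 2 libraries per subpopulation. The sums over fibroblast genes without Dcn were added after seeing the data.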

Additional observations from a re-analysis of the deposited data

Results flagged for a closer look

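At Grik3 and Rimklb the H3K27me3 difference between Lgr5- and Lgr5+ cells was not the same in Tspan8- as in Tspan8hi cells. This came from a test of the interaction added after seeing the data (edgeR, 2 of 22099 genes or 0.00905% at an adjusted p under 0.05, and 1215 or 5.5% at an unadjusted p under 0.05). Grik3 had an interaction of 1.88 on the log2 scale (adjusted p 0.000717): Lgr5- minus Lgr5+ was 1.4 in Tspan8- and -0.48 in Tspan8hi cells. Without Lgr5+Tspan8- replicate 1 its adjusted p was 0.0521. Rimklb, which encodes a ligase of the N-acetylaspartylglutamate pathway, had an interaction of 2.10 (adjusted p 0.0183), with 1.09 in Tspan8- and -1.01 in Tspan8hi cells. Its libraries were at 43.5 and 35.3 CPM in double-negative, 42.7 and 32.5 CPM in Lgr5+Tspan8hi, 20.9 and 16.1 CPM in Lgr5+Tspan8- and 17.0 and 19.9 CPM in Lgr5-Tspan8hi cells. Double-negative and double-positive cells were thus both high, and the contrast with the mean of the other 3 did not pass (0.74, adjusted p 0.0569). The Rimklb interaction did not pass without Lgr5+Tspan8hi replicate 1 (0.37), Lgr5+Tspan8- replicate 1 (0.101) or 2 (0.436), or Lgr5-Tspan8- replicate 1 (0.0758).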

How the results depend on the processing

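Of 41 named genes past the H3K27me3 threshold, 7 kept the call in all 21 alternatives: Enah, Pde3a, Ocln, Tbx2, Grik3, Ptprt and Stac. Counts of higher and lower genes were 304 and 82 with DESeq2, 374 and 71 with limma-voom, 277 and 44 with no filter, 53 and 14 in a 2-group model, 46 and 7 without Lgr5+Tspan8hi in the mean, and 227 and 51 without Lgr5+Tspan8- in the mean. Offsets against abundance gave 47 lower genes and offsets against reads per kb gave 95. Leaving out 1 library gave 11 to 1064 higher and 5 to 90 lower genes. Genes apart from each numbered 7 with DESeq2, limma-voom or no filter, 16 with offsets per kb and 2 to 26 with 1 library left out. Genes differing among the other 3 numbered 28 with DESeq2, 11 with limma-voom, 7 with offsets per kb, 24 with no filter and 0 to 230 with 1 library left out. H3K4me3 calls numbered 59 with limma-voom, 7 in a 2-group model or without Lgr5+Tspan8hi in the mean, and 1 to 50 with 1 library left out. Replicate numbers were not shown to pair samples: same-numbered libraries correlated at -0.01 to 0.12 for H3K27me3 and -0.04 to 0.14 for H3K4me3. With the replicate number as a block there were 486 higher and 106 lower genes, 12 apart from each, 91 among the other 3 and 18 H3K4me3 calls, and all 164 H3K27me3 calls were shared. Signs turned at genes that had not passed. With 1 library left out, H3K27me3 ran from -0.04 (without Lgr5-Tspan8- replicate 1) to 1.08 at Oxtr, from -0.36 (without the same library) to 0.86 at Ptx3 and from -0.58 to 0.15 (without Lgr5-Tspan8- replicate 2) at Dcn, and H3K4me3 at Enah ran from -0.10 to 0.04. Ptx3 was also at -0.05 without Lgr5+Tspan8- in the mean, and H3K4me3 at Enah at 0.01 with offsets against abundance. The cause was not tested for any of these. Genes with few counts, such as Id1, have wide errors.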
